A study of Mus musculus with 42 samples.

Results

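The erythroid genes *Hba-a1*, *Hba-a2*, *Alas2*, *Slc4a1*, *Klf1*, *Ahsp*, *Tfrc*, *Trim10* and *Rhag* were followed in wild-type and *Tug1*-/- mice, in spleen and then in the other tissues sequenced. They were chosen by symbol from a list of 9 genes of the red cell lineage. Of these, 8 had rows among the 26653 genes of the table, and *Ahsp*, the alpha hemoglobin stabilizing protein, was not analysed here. All mice were males of the Tug1_tm1.1Vlcg strain on a C57BL/6J background (N3-C57BL/6J, no Neo). Wild-type mice carried a pair of normal *Tug1* alleles, and *Tug1*-/- mice had *lacZ* instead of *Tug1* at both copies of the locus, where the *Tug1* promoter remained. The deletion was constitutive, and the labels name no further allele and no treatment in either genotype. Spleen, eyes, heart and liver of adult mice had 3 wild-type and 3 knockout samples each, prostate 3 and 2, and testes 4 and 3. Mouse embryonic fibroblasts (MEFs), connective tissue cells grown in culture and taken at the second passage, had 3 and 3. That makes 42 samples, 22 wild-type and 20 knockout.

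Each value below is the authors' pooled value for all samples of a genotype and tissue, in FPKM, fragments scaled to transcript length and to sequencing depth. Since the authors merged the replicates, no spread between animals could be given, no difference was tested, and no neighbors in an order of levels can be said to differ beyond their spread. A difference is given as the log2 of knockout over wild-type after adding 0.1 FPKM to both, which understates the change of genes near 0. More than 1.5-fold is used only as a marker of size. The targeted gene fitted the labels in every tissue, since *Tug1* lay at 11.2 to 27.7 FPKM in wild-type groups and at 0.0075 to 0.402 FPKM in knockout groups. The summed FPKM of a group was lowest in wild-type eyes (378014) and highest in wild-type liver (1124495), and levels in different tissues are therefore on unequal scales. Markers of each tissue were present under its label. Those of testes summed to 42182 and 36384 FPKM (wild-type and knockout) in testes, those of prostate to 25514 and 21697 in prostate, of heart to 29470 and 30320.5 in heart, of eyes to 10545 and 10522 in eyes, and of liver to 66102 and 61500 in liver, of fibroblasts to 4022 and 3614 in MEFs and of spleen to 667 and 551 in spleen.

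Red cells form from progenitors that divide while they take up iron, make heme and fill with hemoglobin, and then lose their nucleus. In adult mice this takes place in bone marrow and, unlike in adult humans, also in the red pulp of the spleen, which expands it when more red cells are needed. Young red cells in blood still hold globin and *Alas2* RNA for a time, so a tissue that was not flushed of blood carries these transcripts without making red cells. Genes of the earlier, nucleated stages are hardly found there. *Hba-a1* and *Hba-a2* encode the alpha chain of adult hemoglobin. *Alas2* encodes the erythroid form of the enzyme at the first step of heme synthesis, and *Tfrc* the transferrin receptor, which brings iron into dividing cells of many types. *Slc4a1* encodes band 3, the anion exchanger of the red cell membrane, and *Rhag* a partner of the Rh proteins in that membrane. *Klf1* encodes a transcription factor that drives globin and other erythroid genes, and *Trim10* a tripartite motif protein of maturing erythroid cells.

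In *Tug1*-/- spleen, all 8 erythroid genes were higher than in wild-type spleen, from 1.75-fold for *Hba-a2* to 2.74-fold for *Rhag*. The median log2 difference was 1.20, against -0.03 over the 21590 genes with a value in spleen. All 8 were more than 1.5-fold higher, where 4.42% of those 21590 genes were more than 1.5-fold higher and 2.47% more than 1.5-fold lower. Among the 12618 genes with a mean of at least 1 FPKM in spleen, 4.91% were more than 1.5-fold higher. A difference of more than 2-fold was seen in 7 of the 8 genes, and in 98 of the 6366 genes with a mean of at least 10 FPKM, or 1.54%. In RNA from whole tissue, fewer cells of a type and less RNA per cell cannot be told apart, and the same holds for more of either.

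Among the alpha globins, *Hba-a1* had 1087 FPKM in wild-type against 2599 FPKM in *Tug1*-/- spleen, 2.39-fold higher. *Hba-a2* had 396 and 694 FPKM. Together they stood at 1484 FPKM in wild-type against 3293 FPKM in knockout spleen, 2.22-fold higher. The enzyme gene *Alas2* had 212 FPKM in wild-type against 437 FPKM in knockout spleen, a log2 difference of 1.04. For iron uptake, *Tfrc* had 33.6 and 68.5 FPKM, a log2 difference of 1.03. These genes for globin, heme and iron uptake were thus all higher in the knockout, at log2 differences of 0.81 to 1.26.

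The genes of the membrane and of regulation were also higher in the knockout. *Slc4a1* had 88.7 FPKM in wild-type against 201 FPKM in *Tug1*-/- spleen, a log2 difference of 1.18. *Rhag* had 11.0 and 30.4 FPKM, which was the largest log2 difference of the 8 genes at 1.45. *Klf1*, the regulator, had 13.8 and 34.8 FPKM, a log2 difference of 1.33. *Trim10* had 24.4 and 57.3 FPKM, a log2 difference of 1.23. The lowest of these genes in wild-type spleen, *Rhag* and *Klf1*, thus had the largest differences, and *Hba-a2* the smallest.

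**Figure D1:**
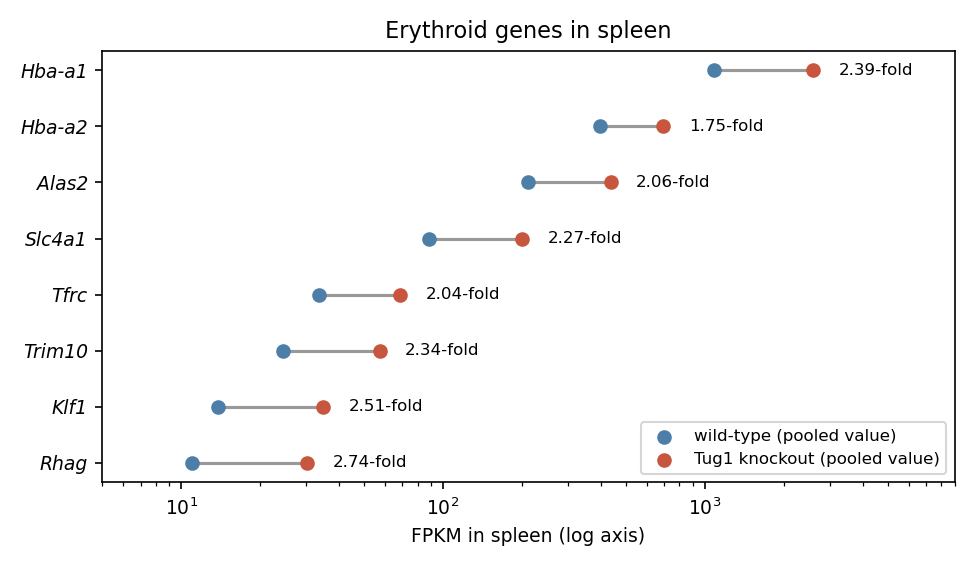
Levels of the 8 erythroid genes in spleen, in FPKM on a log axis, with 1 point for the pooled wild-type value and 1 for the pooled *Tug1* knockout value and the fold beside them. Every knockout point lies to the right of its wild-type point, by 1.75-fold to 2.74-fold.

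In spleen, proportions to the summed alpha globins lay closer between the genotypes for *Alas2*, *Slc4a1* and *Trim10* than for *Klf1* and *Rhag*. *Alas2* stood at 14.3% of the summed alpha globins in wild-type and 13.3% in knockout spleen. *Slc4a1* stood at 5.98% and 6.10%, *Trim10* at 1.65% and 1.74%, *Klf1* at 0.930% and 1.06%, and *Rhag* at 0.743% and 0.922% of that sum. The beta globins *Hbb-bs* and *Hbb-bt* together stood at 4.07 and 3.24 times that sum. These are ratios of FPKM, a value per length, within 1 tissue, and their spread between animals is unknown.

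The promoters of the members are shown because these genes were higher together in spleen, and because several carry the letters read by GATA factors. Of the 9 genes, 7 matched the RefSeq windows of 300 bases (GRCm38.p6), which run from 250 bases before to 50 bases after the start site, and *Tfrc* had a pair of such windows. No such window was found for *Slc4a1* and *Ahsp*, and they were not searched. The letters searched on both strands were AGATAA or TGATAA, and with a final G AGATAG or TGATAG, which are forms of the sequence bound by GATA1, the main erythroid GATA factor. They were present in 6 of the 7 genes and absent from both windows of *Tfrc*. Counted by window, that is 6 of 8, or 75%, against 29.8% of all 32851 windows. *Hba-a1* and *Hba-a2* share a run of 297 bases in these windows, so they are not separate cases. The letters CCNCNCCC, of the kind bound by KLF1, were searched on both strands too and do not overlap the GATA matches. They were present in 2 of the 7 genes, *Alas2* and *Tfrc*. Counted by window, that is 3 of 8, or 37.5%, against 49.5% of all windows. A match describes letters in a window and not a bound site. The bases before the annotated start are printed for 5 of the 6 genes with a match, leaving out *Hba-a1* as a near copy of *Hba-a2*, 5′ to 3′ on the plus strand, with the GATA matches in capitals.
Hba-a2, chr11:32296242-32296488: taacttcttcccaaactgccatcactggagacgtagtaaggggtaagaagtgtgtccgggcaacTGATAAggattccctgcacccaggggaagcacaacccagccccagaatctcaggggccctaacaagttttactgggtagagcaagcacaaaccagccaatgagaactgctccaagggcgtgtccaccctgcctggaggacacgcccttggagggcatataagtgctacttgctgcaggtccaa
Alas2, chrX:150547167-150547374: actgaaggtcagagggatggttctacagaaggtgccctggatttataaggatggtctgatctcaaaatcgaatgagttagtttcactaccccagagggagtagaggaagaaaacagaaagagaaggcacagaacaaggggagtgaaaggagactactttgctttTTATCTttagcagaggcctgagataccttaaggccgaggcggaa
Klf1, chr8:84901732-84901927: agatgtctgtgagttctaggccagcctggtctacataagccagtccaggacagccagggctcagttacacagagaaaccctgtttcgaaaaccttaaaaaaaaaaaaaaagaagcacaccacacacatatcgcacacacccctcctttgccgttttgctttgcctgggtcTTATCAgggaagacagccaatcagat
Trim10, chr17:36869324-36869573: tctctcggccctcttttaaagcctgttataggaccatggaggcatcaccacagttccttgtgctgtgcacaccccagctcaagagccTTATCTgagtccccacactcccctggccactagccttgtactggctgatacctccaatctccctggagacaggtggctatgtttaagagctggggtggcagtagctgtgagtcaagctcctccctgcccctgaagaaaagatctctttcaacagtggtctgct
Rhag, chr17:40810899-40811125: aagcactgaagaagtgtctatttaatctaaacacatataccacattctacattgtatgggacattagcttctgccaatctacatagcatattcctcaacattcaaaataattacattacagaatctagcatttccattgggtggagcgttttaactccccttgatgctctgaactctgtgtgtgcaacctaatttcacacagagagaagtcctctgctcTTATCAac
The match began 186 bases before the RefSeq start site in *Hba-a2*, 163 bases before it in *Trim10*, 86 in *Alas2*, 80 in *Klf1* and 31 in *Rhag*.

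Other genes of the red cell lineage were also higher in knockout spleen. Across 6 lists of other erythroid genes, 56 of 67 genes with a value were more than 1.5-fold higher in *Tug1*-/- spleen and 0 were more than 1.5-fold lower, where the shares over all genes were 4.42% and 2.47%. Some of the 56, such as *Hbb-y* and *Hba-x*, had a mean below 1 FPKM in spleen. The median log2 difference of the 67 was 0.97. The difference was above 0 in 64 of the 67 and below 0 in 3. These genes were listed with earlier results of these data known, and they were not tested.

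Among the other globins, *Hbb-bs* and *Hbb-bt*, the adult beta chains, had 4308 and 1734 FPKM in wild-type against 7819 and 2866 FPKM in knockout spleen. Their sum was 1.77-fold higher. The globin list had 6 of 7 genes more than 1.5-fold higher, with *Hbq1a* and *Hbq1b*, the theta chains, at log2 differences of 1.06 each. The 6 include *Hbb-y* at 0.022 and 0.266 FPKM and *Hba-x* at 0 and 0.081 FPKM, levels near 0 in both genotypes. Both were named after their values were seen. The 4 globin genes named *Hba-a1*, *Hba-a2*, *Hbb-bs* and *Hbb-bt* took 1.58% of all FPKM in wild-type spleen and 2.86% in knockout spleen.

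Of the 8 other heme synthesis genes, 7 were more than 1.5-fold higher. *Cpox* had 18.4 and 40.9 FPKM (wild-type and knockout), and *Fech*, which puts iron into the ring, 36.5 and 71.4 FPKM. *Urod* had 52.2 and 87.3 FPKM and *Alad* 25.9 and 44.9 FPKM. The exception was *Alas1*, the form of aminolevulinate synthase used outside red cells, which had 12.8 FPKM in wild-type against 11.9 FPKM in knockout spleen. The erythroid and the general form of this enzyme therefore stood apart, at log2 differences of 1.04 for *Alas2* and -0.11 for *Alas1*. *Alas1* was named after its values were seen.

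Of 9 genes of erythroid iron handling, 8 were more than 1.5-fold higher. *Slc25a37*, which carries iron into mitochondria, had 48.2 and 86.3 FPKM, and *Abcb10* had 13.0 and 24.9 FPKM. *Tfr2*, the second transferrin receptor, had 1.30 and 3.75 FPKM, a log2 difference of 1.46, and *Steap3*, which reduces iron taken up with transferrin, had 3.32 and 7.56 FPKM. *Slc11a2*, which was named after its values were seen, was below the 1.5-fold marker at 9.40 and 13.7 FPKM.

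All 17 genes of the red cell membrane and its skeleton were more than 1.5-fold higher, where 4.42% of all genes with a value in spleen were. More than 2-fold higher were 14. The share past 2-fold was counted only over genes with a mean of at least 10 FPKM (1.54%), and some genes of this list lie below that level. *Aqp1*, a water channel, had 52.3 FPKM in wild-type against 107 FPKM in knockout spleen, *Rhd* 25.1 and 60.5 FPKM and *Kel* 10.8 and 27.1 FPKM. The largest log2 differences on this list, 1.32 for *Kel* and 1.31 for *Ermap* and *Add2*, were below the 1.45 of *Rhag*. The list's median of 1.15 was close to the 1.20 of the 8 members.

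Erythroid transcription factors and the erythropoietin receptor were split. *Gata1* had 8.01 and 18.2 FPKM, *Tal1* 7.35 and 18.7 FPKM, *Gfi1b* 5.59 and 12.9 FPKM, *Sox6* 2.78 and 6.17 FPKM and *Nfe2* 15.5 and 32.4 FPKM. With *Zfpm1* and *Epor*, these were the 7 of 12 genes more than 1.5-fold higher. The other 5 were *Ldb1* (80.9 and 82.2 FPKM), *Lmo2* (65.1 and 75.8), *Bcl11a* (24.9 and 22.0), *Kit* (5.93 and 7.15) and *Gata2* (2.36 and 2.64). Their log2 differences lay between -0.18 and 0.27. *Zfpm1*, *Epor*, *Kit* and *Gata2* were named after their values were seen.

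Of 14 genes of late red cell maturation, 11 were more than 1.5-fold higher. *Car1* and *Car2*, the carbonic anhydrases of red cells, had 67.0 and 145 FPKM in wild-type against 178 and 343 FPKM in knockout spleen. *Bpgm*, which makes the oxygen affinity regulator of red cells, had 96.4 and 192 FPKM. *Pklr*, the pyruvate kinase of liver and red cells, had 2.98 and 8.31 FPKM. *Bnip3l*, needed for the clearance of mitochondria, was below the marker at 141 and 194 FPKM. *Alox15* was the only gene of the 14 that was lower in the knockout, at 1.98 and 1.30 FPKM, and was named after its values were seen.

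**Figure D2:**
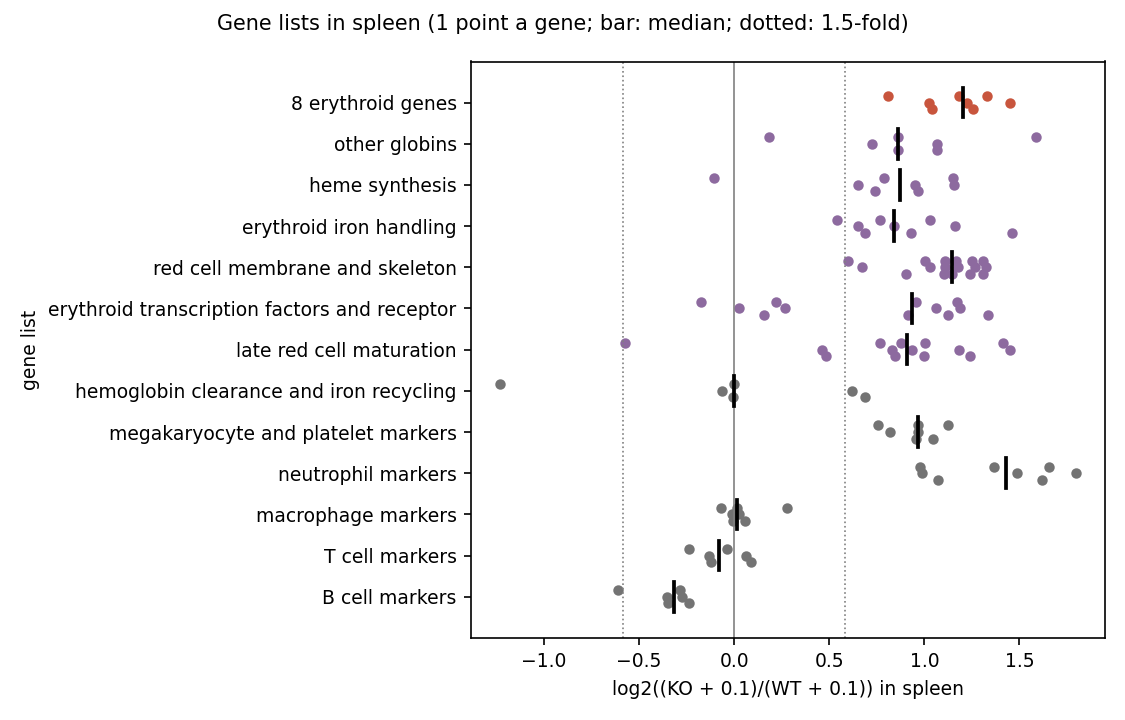
Log2 of knockout over wild-type in spleen, with 0.1 FPKM added to both, for every gene of 13 lists, 1 point a gene, with a bar at each list's median and dotted lines at 1.5-fold. The erythroid lists, the megakaryocyte and platelet markers and the neutrophil markers lie mostly to the right of 1.5-fold, with medians of 0.84 to 1.43, and the macrophage, T cell and B cell markers lie near or below 0.

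Markers of some other blood cells differed in the same direction as the erythroid genes in spleen. All 8 neutrophil markers were more than 1.5-fold higher, and their summed level was 729 FPKM in wild-type against 1521 FPKM in knockout. *S100a9* had 354 and 698 FPKM, and *Mpo*, of early granulocytes, 4.86 and 17.1 FPKM. All 7 megakaryocyte and platelet markers were more than 1.5-fold higher too, with sums of 184 and 365 FPKM, and *Pf4* had 60.7 and 118 FPKM. Of the 6 B cell markers, 0 were higher and 1 was more than 1.5-fold lower, with sums of 1680 and 1330 FPKM and *Cd79b* at 578 and 452 FPKM. The 6 T cell markers summed to 200 and 192 FPKM and the 7 macrophage markers to 949 and 988 FPKM, with no gene of either more than 1.5-fold apart. No marker of these 5 lists was at 0 in spleen. The part of these cells in the erythroid differences was not tested.

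Of 6 genes for the clearance of hemoglobin and the recycling of iron, 2 were more than 1.5-fold higher in knockout spleen, 1 was more than 1.5-fold lower and the other 3 lay close in both genotypes. *Hmox1*, heme oxygenase, had 308 and 307 FPKM, *Slc40a1*, the iron exporter ferroportin, had 166 and 159 FPKM, and *Spic*, the factor of red pulp macrophages, had 54.6 and 54.4 FPKM. *Cd163*, the hemoglobin scavenger receptor, was higher at 12.7 and 20.4 FPKM, and so was *Hp*, haptoglobin, at 8.19 and 12.6 FPKM. *Hpx*, hemopexin, which binds free heme, was lower at 0.318 and 0.078 FPKM. *Hp* and *Hpx* were named after their values were seen. Transcripts of other organs in the spleen samples also differed, with *Spink3*, a secreted trypsin inhibitor of exocrine glands, at 0.065 and 28.5 FPKM, and liver markers at summed levels of 6.97 and 2.34 FPKM.

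**Figure D3:**
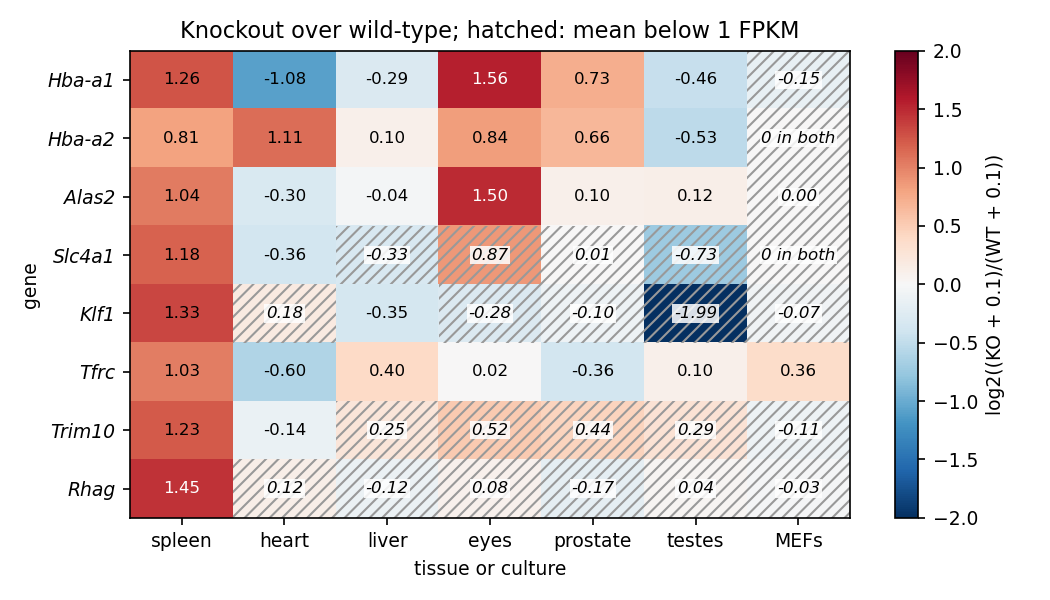
Log2 of knockout over wild-type (colour and number, with 0.1 FPKM added to both) for 8 erythroid genes in rows and 7 tissues or cultures in columns, with hatching where the mean of both genotypes was below 1 FPKM. The spleen column is positive throughout, from 0.81 to 1.45, and no other column is.

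Outside spleen, the 8 genes did not stand together. At least 1 FPKM in both genotypes was seen for 6 of them in heart, 5 in liver, 4 each in eyes, prostate and testes, and 1 in MEFs. *Rhag* was below 0.05 FPKM in every tissue but spleen, and *Klf1* was below 0.3 FPKM in heart, eyes, prostate and MEFs. The genes found outside spleen were thus mainly the globins, *Alas2* and *Tfrc*. Apart from *Klf1* in liver and in wild-type testes, and *Slc4a1* and *Trim10* in heart, the 4 genes *Klf1*, *Slc4a1*, *Trim10* and *Rhag* were below 1 FPKM outside spleen.

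Heart had the highest *Alas2* level in the table, with 630 FPKM in wild-type against 512 FPKM in *Tug1*-/- samples. *Hba-a1* had 1351 FPKM in wild-type against 638 FPKM in knockout heart, while *Hba-a2* had 542 and 1171 FPKM. The sum of the alpha globins was 1893 and 1809 FPKM, a log2 difference of -0.07. The opposite directions of *Hba-a1* and *Hba-a2* thus nearly cancelled. The median log2 difference of the 8 genes was -0.22 in heart, against 0.0046 over 21131 genes. More than 1.5-fold higher was 1 of the 8 genes (*Hba-a2*) and more than 1.5-fold lower were 2 (*Hba-a1* and *Tfrc*), where the shares over all genes were 1.42% and 3.53%. With 1 FPKM added, *Tfrc* was no longer past 1.5-fold, at a log2 difference of -0.55.

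The same exchange was seen for the beta globins in heart. *Hbb-bs* had 4113 FPKM in wild-type against 2528 FPKM in knockout, and *Hbb-bt* had 827 and 3062 FPKM. Their sum was 4939 and 5591 FPKM. *Hbb-bs* took 83.3% of that sum in wild-type heart and 45.2% in knockout heart, and 71.3% to 85.2% in the other 5 tissues that had beta globin RNA, in either genotype. *Hba-a1* took 71.4% of the alpha globin sum in wild-type heart and 35.3% in knockout heart. In the other 5 tissues the share of *Hba-a1* ran from 36.2% in knockout liver to 78.9% in knockout spleen, and differed between the genotypes by less than in heart.

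**Figure D4:**
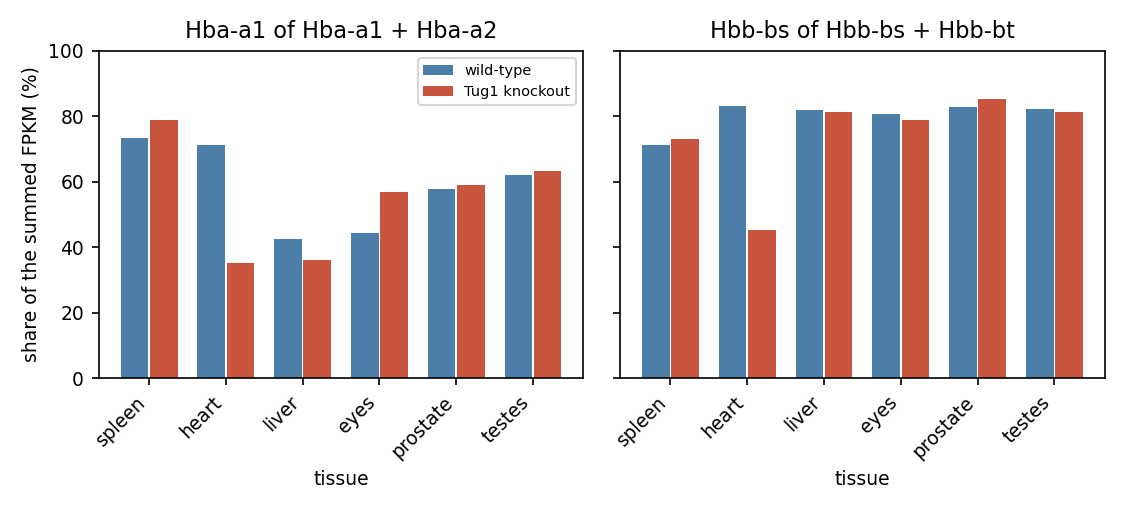
Share of *Hba-a1* in the summed FPKM of *Hba-a1* and *Hba-a2* (left) and of *Hbb-bs* in that of *Hbb-bs* and *Hbb-bt* (right), in percent, for 6 tissues, with 1 bar for the pooled wild-type value and 1 for the pooled knockout value. The bars of heart differ most between the genotypes, at 71.4% and 35.3% on the left and 83.3% and 45.2% on the right.

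The members of each pair of globins share long identical stretches, so the split within a pair rests on the other parts of the transcripts. The longest shared run is 415 bases for *Hba-a1* and *Hba-a2* and 430 bases for *Hbb-bs* and *Hbb-bt*. Of the windows of 100 bases, about the length of a read, in the annotated *Hba-a1* transcript (699 bases), 56.5% also occur in the *Hba-a2* transcript (554 bases), and 74.5% of those of *Hba-a2* occur in *Hba-a1*. For *Hbb-bs* and *Hbb-bt* the shares are 62.6% and 54.8%. A window stands for a single read, while the libraries were read in pairs. The values of the single genes of a pair are uncertain for this reason in every tissue, and its part in the shares in heart was not tested. Since FPKM divides by transcript length and the lengths within a pair are unequal, reads moved between the copies change the sum as well, so small differences of a sum are uncertain too. *Hba-a1* lies at chr11:32283511-32284465 and *Hba-a2* at chr11:32296489-32297298 on the plus strand of GRCm38, in GENCODE vM21, which was used here for positions.

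In heart, *Slc4a1* had 6.68 FPKM in wild-type against 5.18 FPKM in knockout, *Trim10* 3.81 and 3.46 FPKM, and *Tfrc* 14.1 and 9.32 FPKM. *Klf1* was listed at 0.0843 and 0.108 FPKM. *Slc4a1* thus stood at 0.353% and 0.286% of the alpha globins in heart, against 5.98% and 6.10% in spleen. All 6 B cell markers were more than 1.5-fold lower in knockout heart, with sums of 34.2 and 15.4 FPKM. The neutrophil markers summed to 47.2 and 38.8 FPKM there, the megakaryocyte and platelet markers to 154 and 127 FPKM, and the T cell markers to 4.83 and 3.66 FPKM. Macrophage markers went the other way, with sums of 219 and 285 FPKM, and 0 of 7 were more than 1.5-fold higher. *Elane* was listed at 0 in wild-type heart and *Ly6g* and *Mpo* at 0 in knockout heart, and no other gene of these lists was at 0 there. Their part in the erythroid values was not tested.

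In liver, the 8 genes lay close in both genotypes, with a median log2 difference of -0.08 against -0.0058 over 19542 genes. None of the 8 was more than 1.5-fold apart, where 4.25% of all genes were more than 1.5-fold higher and 3.69% lower. *Hba-a1* had 56.2 and 46.1 FPKM, *Hba-a2* 75.8 and 81.2 FPKM, and *Alas2* 151 and 146 FPKM (wild-type and knockout). *Klf1*, at 3.96 and 3.08 FPKM, was higher in liver than in any tissue but spleen. *Tfrc* had 7.56 and 10.0 FPKM, *Slc4a1* 0.379 and 0.282 FPKM, and *Trim10* 0.124 and 0.166 FPKM. Among the other heme genes, *Alas1* had 139 FPKM in wild-type against 522 FPKM in knockout liver, a log2 difference of 1.91, beside -0.04 for *Alas2*.

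In eyes, globin and *Alas2* RNA was higher in the knockout, at much lower levels than in spleen. *Hba-a1* had 20.4 FPKM in wild-type against 60.4 FPKM in *Tug1*-/- eyes, *Hba-a2* 25.7 and 46.0 FPKM, and *Alas2* 4.81 and 13.8 FPKM. The alpha globins together were 2.31-fold and the beta globins 3.14-fold higher. *Tfrc* had 31.4 and 31.7 FPKM. The other 4 genes were below 0.3 FPKM in both genotypes. Of the 8 genes, 4 were more than 1.5-fold higher, where 2.83% of 22716 genes were, and 0 were more than 1.5-fold lower, where 1.66% were. The 4 include *Slc4a1* at 0.0685 and 0.209 FPKM, which was lost with 1 FPKM added, and *Trim10* joined them with 0.01 FPKM added or with each group scaled to a sum of 1e6. The median log2 difference of the 8 was 0.68, and it moved with the pseudocount from 0.14 to 0.87.

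Among the wider erythroid lists in eyes, the other globins followed, with 3 of 6 genes with a value more than 1.5-fold higher and *Hbb-bs* at 107 and 329 FPKM. More than 1.5-fold higher were 0 of 8 heme synthesis genes, 0 of 9 iron handling genes, 2 of 16 membrane genes with a value, 1 of 12 transcription factor genes and 0 of 14 maturation genes. The heme list had a median log2 difference of 0.06 in eyes against 0.87 in spleen. The difference between the tissues was not tested. Of other blood cell markers, those of neutrophils, of megakaryocytes and platelets and of macrophages summed higher in knockout eyes, and those of B and T cells lower. The neutrophil markers summed to 3.28 and 8.99 FPKM, with 3 of 7 with a value more than 1.5-fold higher, and the megakaryocyte and platelet markers to 7.72 and 14.2 FPKM, with 4 of 7. Macrophage markers summed to 81.4 and 105 FPKM, with 0 of 7 more than 1.5-fold higher. B cell markers summed to 1.39 and 1.27 FPKM and T cell markers to 1.39 and 1.22 FPKM. *Hp*, the plasma protein that binds free hemoglobin, had 5.35 and 21.5 FPKM in eyes. The neutrophil marker *Ly6g* was at 0 in both genotypes, and the part of these cells in the globin values was not tested.

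In prostate, *Hba-a1* had 17.6 and 29.3 FPKM and *Hba-a2* 12.9 and 20.4 FPKM, so both were more than 1.5-fold higher in the knockout, and so were *Hbb-bs* (41.3 and 75.3 FPKM) and *Hbb-bt* (8.58 and 13.1 FPKM). *Alas2* had 5.04 and 5.42 FPKM and *Tfrc* 8.12 and 6.29 FPKM. The globins thus differed by more than *Alas2*. *Hp* (4.19 and 14.2 FPKM) and *Cd163* (1.08 and 2.82 FPKM) were higher in knockout prostate as well. In heart and liver, the alpha globin sums lay close in both genotypes. *Cd163* was higher there too, at 6.78 and 11.3 FPKM in heart and 5.93 and 8.38 FPKM in liver. *Hp* was lower in knockout heart (21.7 and 11.1 FPKM) and close in liver (2318 and 2305 FPKM). Macrophage markers summed to 64.0 and 91.1 FPKM with 2 of 7 more than 1.5-fold higher, and megakaryocyte and platelet markers to 8.85 and 12.2 FPKM with 1 of 7, and their part in the globin values was not tested. Of the 8 genes, 2 were more than 1.5-fold higher and 0 lower, where the shares over 20844 genes were 4.23% and 2.17%, and the median log2 difference was 0.06. *Klf1*, *Slc4a1*, *Trim10* and *Rhag* were below 0.3 FPKM in both genotypes.

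Testes held little globin RNA, with *Hba-a1* at 3.70 and 2.66 FPKM and *Hba-a2* at 2.27 and 1.55 FPKM. *Alas2* had 12.2 and 13.3 FPKM there, more than the alpha globins together at 5.97 and 4.20 FPKM. *Klf1* had 1.39 FPKM in wild-type against 0.274 FPKM in knockout testes, a log2 difference of -1.99, and *Slc4a1* had 0.203 and 0.0829 FPKM. These were the 2 of 8 genes more than 1.5-fold lower, and 0 were higher, where the shares over 24527 genes were 2.27% and 2.76%. With 1 FPKM added, the log2 difference was -0.91 for *Klf1* and -0.15 for *Slc4a1*, which was then no longer past 1.5-fold, and with 0.01 FPKM added *Trim10* was more than 1.5-fold higher. *Tfrc* had 6.00 and 6.43 FPKM.

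In MEFs, which were grown in culture, *Hba-a2* and *Slc4a1* were listed at 0 in both genotypes and *Hba-a1* at 0.011 and 0 FPKM. *Alas2* had 0.264 and 0.265 FPKM. *Tfrc*, which dividing cells of many types use, had 19.7 and 25.4 FPKM, a log2 difference of 0.36. Of the 6 genes with a value, 0 were more than 1.5-fold apart, where 1.82% of 20036 genes were higher and 3.85% lower.

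*Alas2* did not keep the same proportion to the globins between tissues. It stood at 14.3% and 13.3% of the alpha globin sum in spleen (wild-type and knockout), 33.3% and 28.3% in heart, 10.4% and 12.9% in eyes and 16.5% and 10.9% in prostate. In liver it stood at 114% and 115%, and in testes at 205% and 317%. Liver and testes thus stood apart from the other 4 tissues in both genotypes. *Alas2* lies at chrX:150547375-150570638 on the plus strand, inside the annotated *Apex2* gene on the minus strand (GRCm38, GENCODE vM21), and no source used here states a stranded library, so reads of the 2 genes cannot be told apart where they overlap. *Apex2* was listed at 1.31 to 6.41 FPKM in the 6 tissues, which is 0.525% to 4.39% of *Alas2* in spleen, heart and liver, 10.2% and 10.7% in testes, and 27.2% to 74.7% in eyes and prostate.

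**Figure D5:**
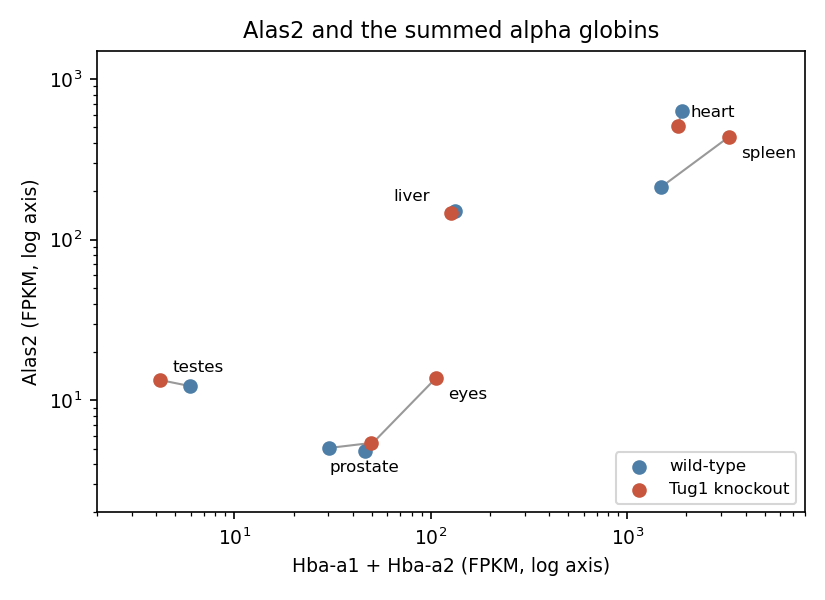
*Alas2* against the sum of *Hba-a1* and *Hba-a2*, both in FPKM on log axes, for 6 tissues, with 1 point for the pooled wild-type value and 1 for the pooled knockout value, joined by a line. Spleen and eyes move up and to the right from wild-type to knockout, liver and heart stay close, and liver and testes lie high for their globin level.

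The order of the tissues by alpha globin sum was spleen and heart, then liver and eyes, prostate, testes and MEFs, with wild-type heart above wild-type spleen (1893 and 1484 FPKM) and knockout spleen above both at 3293 FPKM. As parts of 1e6 of each group's summed FPKM, wild-type spleen (3106) and wild-type heart (3108) were nearly level. *Tfrc* had another order, with wild-type spleen (33.6 FPKM), eyes (31.4) and MEFs (19.7) above heart (14.1), prostate (8.12), liver (7.56) and testes (6.00).

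The genes whose levels over the 14 tissue and genotype groups were most like the mean of the 8 members, among 16319 genes that reached 5 FPKM, were *H2-Q5*, *Gimap8*, *Ifi203*, *Itga2b*, *Gimap1*, *Gimap5*, *Csf3r* and *Grap*, with Pearson's r from 0.978 to 0.992. These points share libraries and the high value of spleen. Of the 8, *Itga2b*, a platelet integrin, was more than 1.5-fold higher in knockout spleen (11.4 and 19.4 FPKM), and the others were not, as *Gimap1* at 102 and 94.2 FPKM. The genes whose log2 differences over the 7 tissues were most like the members' median, among 8873 genes with a mean of at least 1 FPKM in each tissue, were *March2*, *Dhrs11*, *Akip1*, *Gstt3*, *Thoc7*, *Abhd5*, *Usp15* and *March5*, with r from 0.940 to 0.978. *March2* had 67.6 and 102 FPKM and *Dhrs11* 15.6 and 33.6 FPKM in spleen. Each r rests on 7 points here and describes a likeness only.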

How the data were processed

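The authors deposited 1 table of comparisons between genotypes in each tissue, with 1 value per genotype in FPKM, which its header does not name. The submitters' processing notes list CASAVA 1.8.2, TopHat2, Cuffdiff and mm10, with no roles. Poly(A) RNA libraries were read in pairs, and the replicates had been pooled by the authors, so depth per sample, replicate error and paired fits could not be had. The authors' log2 fold change, test statistic, p-value, q-value and call columns were not used. A pair of groups with no sample among the labels here (26653 rows) was not used. Genes at 0 in both genotypes or with failed estimates in the table were left out of counts and medians, and failed estimates stay at 0 in sums. Differences were log2((KO + 0.1)/(WT + 0.1)). The members and lists were chosen with earlier results of these data known. Named were all members, up to 4 genes of each list with the highest mean in spleen and up to 4 past 2-fold with a mean of at least 1 FPKM, the 8 genes most like the members in level and the 8 most like them in change. Some genes that this rule names are not reported here. *Epb4.1*, *Epb4.2* and *Emr1* were matched through RefSeq synonyms, and *Hbb-b1* and *Hbb-b2* were not analysed here. Python 3.11.15, pandas 2.3.3 and numpy 2.4.6 were used. Alternatives changed the pseudocount, a filter, the scaling, the sum of the alpha globins and the fold limit.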

Additional observations from a re-analysis of the deposited data

How the results depend on the processing

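No paired analysis was possible because the table gives 1 pooled value per genotype and tissue, and for the same reason no replicate could be left out. With no spread between replicates, a shift of over 0.1 (log2) is reported as a move. In spleen, all 8 genes stayed more than 1.5-fold higher under each scaling, pseudocount and filter tried, 7 passed 2-fold, and the median lay between 1.17 and 1.22. All 8 had a mean above 1 FPKM there, so the filter removed none of them. At their levels the pseudocount could change little. The median in eyes, 0.68, was 0.14 with 1 FPKM added, 0.87 with 0.01 FPKM added, 1.17 over genes with a mean of at least 1 FPKM and 0.52 with the alpha globins summed. The mean filter gave -0.33 in heart (-0.22), 0.38 in prostate (0.06) and 0.36 in MEFs (-0.05), where it left 1 gene. Adding 1 FPKM gave -0.074 in testes (-0.21), summing the alpha globins gave 0.038 there, and adding 0.01 FPKM gave -0.18 in MEFs. The cause of these moves was not tested. Of 54 differences of single genes, 17 moved with 1 FPKM added and 18 with 0.01 FPKM added. With 0.01 FPKM added, *Rhag* in liver and prostate, *Trim10* in prostate and *Hba-a1* in MEFs, all with a mean below 1 FPKM, also passed 1.5-fold.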
